A study of Homo sapiens with 62 samples.

Results

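The 10 genes described here are members of the BCL2 family, found by gene name in every count table: MCL1, BCL2, BCL2L1, BCL2L2 and BCL2A1, BAK1, and BCL2L11, BMF, BID and BIK. They are 10 of 58735 genes in the tables of A2058, HCT116, AGS and MCF10A and of 48162 genes in the tables of A2780. Poly-T selected RNA was sequenced in 62 libraries of 15042068 to 30984036 counts from 5 human cell lines, harvested 24 hours after plating. The study compared cells that carry a gained chromosome arm with clones that lost the extra copy through ReDACT, a set of engineering methods whose versions the labels call NS, TR and CO.

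A2058 melanoma cells had 4 parental (WT) libraries and 4 1q-loss, 6 7p-loss and 4 8q-loss libraries from 2, 3 and 2 CO clones. HCT116 colorectal cancer cells had 2 WT libraries and 4 8q-loss libraries from 2 CO clones. AGS gastric cancer cells were sequenced as 1 WT, 2 TK+ and 5 1q-loss cultures with a clone each for the last 2 groups, and loss clone 11 was made by CO, the others by NS. A2780 ovarian cancer cells had 2 WT, 2 TK+ and 6 1q-loss libraries, the last from 3 NS clones. TK+ cells carry a TK integrant and keep the gain, so they were counted as controls beside WT. MCF10A breast epithelial cells had 2 WT libraries and 8 1q-loss libraries from 4 clones (clones 1 to 3 by TR, clone 4 by CO), and the same numbers in cells expressing hRASV12, an activated form of HRAS (hRas here). The loss clones each grew from a single cell. Libraries of 1 clone are not independent, and p-values measure only the spread between these libraries.

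BCL2 family proteins set whether the outer mitochondrial membrane is opened, the step of intrinsic apoptosis that releases cytochrome c and leads to caspase activation. MCL1, BCL2, BCL-XL (from BCL2L1), BCL-W (from BCL2L2) and A1 (from BCL2A1) are pro-survival proteins that hold the pore-forming effectors BAK (from BAK1) and BAX in check. BIM (from BCL2L11), BMF, BID and BIK are BH3-only proteins, which bind the pro-survival proteins and in some cases activate the effectors directly. MCL1 protein is short-lived, so messenger RNA is only 1 of the levels at which it is set, and only RNA was measured here. MCL1 lies on 1q (ENSG00000143384, chromosome 1, 150574551 to 150579738, minus strand, GRCh38), the arm lost in 5 of the 8 loss groups. The other 9 genes lie on chromosomes 2, 6, 14, 15, 18, 20 and 22, so none is on a targeted arm. BCL2 (ENSG00000171791) lies at 63123346 to 63320128 of chromosome 18 and BMF (ENSG00000104081) at 40087890 to 40108892 of chromosome 15, both on the minus strand of GRCh38.

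Several groups stood apart before any of these genes was considered. In A2058, the summed level of 6 melanocyte markers (SOX10, MITF, PMEL, MLANA, TYR and DCT) was 2486 to 4399 CPM (counts scaled to the TMM-adjusted library size) in WT libraries and 49.5 to 255 CPM in 1q-loss libraries, and all 6 were called lower. The 3 fibroblast markers (COL1A1, COL1A2 and DCN) summed to 17.0 to 24.4 CPM in A2058 WT and 108 to 247 CPM in the 1q-loss libraries. Only 2 of these 3 were tested: 1 was called higher and 1 had a negative log2 fold change. In MCF10A hRas clone 2, the 6 markers of intestinal epithelium, of which only EPCAM and CDH1 reached 1 CPM in this line, summed to 6.98 to 7.69 CPM against 310 to 313 CPM in hRas WT. The 5 basal breast markers (KRT5, KRT14, TP63, CDH3 and EGFR) summed to 845 to 891 CPM in that clone against 4249 to 4357 CPM. A2780 had 0 of 5 ovarian carcinoma markers (PAX8, WT1, MUC16, EPCAM and KRT7) at a mean of 1 CPM, AGS lacked CLDN18, GKN1 and MUC5AC, and HCT116 lacked VIL1 and CDH17. In AGS 1q-loss, 2 of the 3 ovarian carcinoma markers and 1 of the 3 basal breast markers tested were called higher, and 1 of 3 gastric markers lower. In A2058 1q-loss, 3 of the 3 ovarian carcinoma markers and 1 of the 1 basal breast markers tested were called higher. Of the leukocyte markers PTPRC, CD3E and CD14, only CD14 in MCF10A reached 1 CPM. In such bulk RNA, fewer cells of a type and less RNA per cell cannot be told apart.

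Across the lines, MCL1 was the most abundant of these messages in 4 of the 5. Levels of different genes were compared as CPM per kilobase of gene length, in WT libraries and, for AGS and A2780, WT and TK+ libraries. MCL1 stood at 64.3 ± 1.28 CPM per kb (SD, n = 4) in A2058, 146 ± 2.18 (n = 3) in AGS, 89.3 ± 2.36 (n = 4) in A2780 and 164 ± 6.31 (n = 2) in MCF10A. In AGS the next gene, BCL2L1, lay at 141 ± 12.0 CPM per kb, and its range of 127 to 148 overlapped that of MCL1, 145 to 149. In HCT116 the order was different: BCL2L1 was highest at 59.7 ± 10.9 CPM per kb (n = 2), followed by BAK1 at 49.8 ± 19.0, BIK at 34.9 ± 17.5 and BID at 25.4 ± 7.59, and MCL1 was the fifth at 14.96 ± 3.94. The ranges of neighbours in that HCT116 order overlapped down to BID, whereas MCL1, at 12.2 to 17.7, lay below BID, at 20.01 to 30.7.

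**Figure D1:**
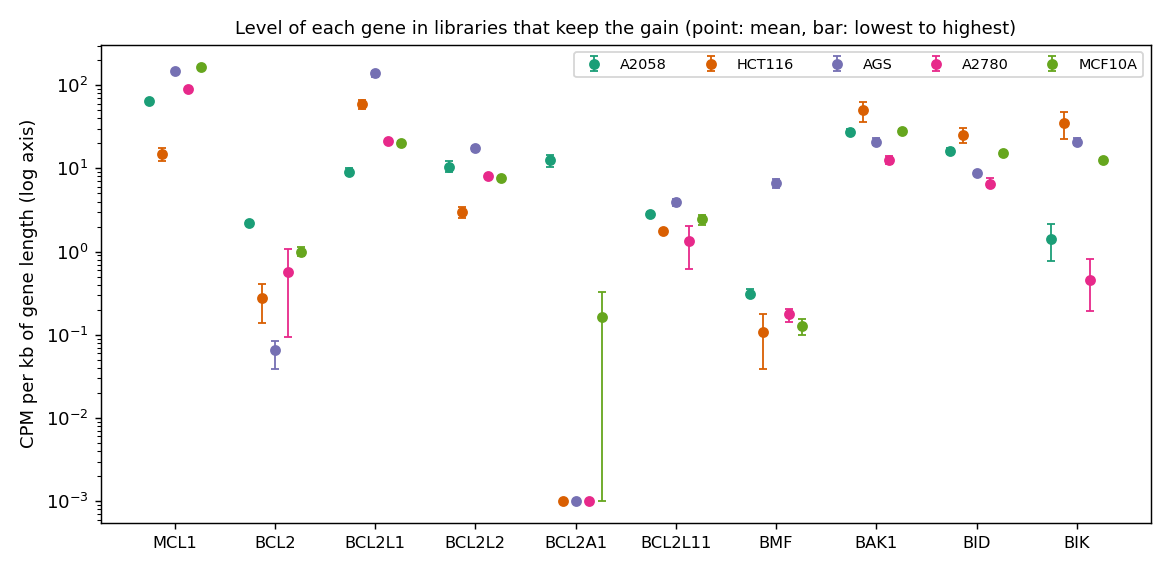
Level of each of the 10 genes in the libraries that keep the gain, as CPM per kb of gene length on a log axis, with the mean as a point and the lowest and highest library as a bar for each line; values of 0 are drawn at the foot of the axis. MCL1 is the highest point in A2058, AGS, A2780 and MCF10A and BCL2L1 in HCT116, and BCL2A1 stands above 1 CPM per kb in A2058 alone.

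The remaining genes marked individual lines. BCL2A1, known as a target of MITF in melanocytes, was at 12.6 ± 1.92 CPM per kb in A2058 and had 0 counts in every AGS and A2780 library, at most 4 counts in an HCT116 library and at most 8 in an MCF10A library. BMF was at 6.61 ± 0.821 CPM per kb in AGS and between 0.109 and 0.313 CPM per kb in the means of the other 4 lines. BIK was at 12.5 to 34.9 CPM per kb in the means of HCT116, AGS and MCF10A, 1.42 ± 0.556 in A2058 and 0.453 ± 0.283 in A2780. BCL2 was highest in A2058, at 2.23 ± 0.0613 CPM per kb, and lowest in AGS, at 0.0662 ± 0.0246. BAK1 and BID were at 12.6 and 6.48 CPM per kb or more in each line. Lengths come from 2 annotations, so A2780 levels per kb are not strictly on the scale of the other lines.

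Change in each loss comparison was tested with the quasi-likelihood F-test of edgeR over all genes that passed the filter on low counts, and a gene was called at a Benjamini-Hochberg adjusted p under 0.05. In A2058 1q-loss, 6 of 10 members were called, against 49.6% of all genes tested. No member of 10 was called in A2058 7p-loss or 8q-loss, where 0.908% and 2.03% of genes were called, and none of the 9 tested in HCT116 8q-loss, with 0.140% called. Before adjustment, only MCL1 in 7p-loss and BMF in 8q-loss of A2058 passed 0.05 in these 3 comparisons, and DESeq2 also called 0 members in each. In AGS 1q-loss 3 of 9 were called (7.55% of genes), in A2780 1q-loss 3 of 8 (11.8%), in MCF10A 1q-loss 1 of 9 (2.04%) and in MCF10A hRas 1q-loss 0 of 9 (0.214%). In the hRas comparison BCL2L2 alone passed 0.05 before adjustment, and DESeq2 called 0 members. The 3 A2058 comparisons share their 4 WT libraries.

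**Figure D2:**
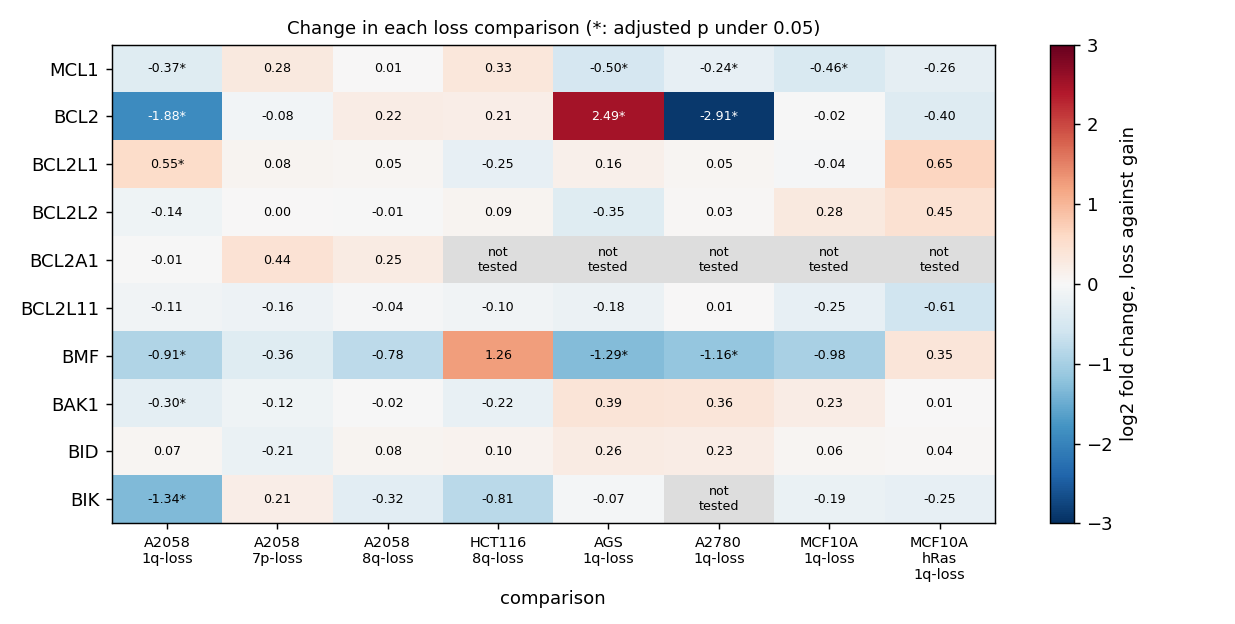
Log2 fold change of each of the 10 genes (rows) in each loss group against the libraries of its line that keep the gain (columns), coloured from -3 to 3, with an asterisk where the adjusted p was under 0.05. MCL1 was called lower in 4 of the 5 1q-loss columns, whereas BCL2 carried calls in opposite directions in A2058 (-1.88) and AGS (2.49).

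MCL1 was lower in 1q-loss cells of A2058, AGS, A2780 and MCF10A, to between 70.6% and 84.9% of the controls. In A2058, WT libraries were at 278, 289, 277 and 280 CPM and the 1q-loss libraries at 191 and 231 CPM in clone 1 and 194 and 256 CPM in clone 2. Every 1q-loss library was below every WT library, and the log2 fold change was -0.37 (SE 0.0931, adjusted p = 0.0075). In AGS the WT library was at 638 CPM, the TK+ libraries at 632 and 650 CPM, and loss clones 1, 4, 6, 7 and 11 at 417, 443, 415, 431 and 544 CPM. The groups did not overlap, with clone 11 between the controls and the other 4 clones, and the log2 fold change was -0.50 (SE 0.119, adjusted p = 0.037). The AGS call was lost on leaving out any one library other than clone 11, with log2 fold changes of -0.51 to -0.47 and adjusted p of 0.062 to 0.14. Without clone 11 the log2 fold change was -0.58 (adjusted p = 0.011).

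In A2780, MCL1 was at 344 and 342 CPM in WT, at 358 and 360 CPM in TK+ and at 281 to 311 CPM (median 300) in the 6 loss libraries. The groups did not overlap, and the log2 fold change was -0.24 (SE 0.0508, adjusted p = 0.013), which held neither with WT controls alone (-0.20, adjusted p = 0.12) nor with TK+ controls alone (-0.27, adjusted p = 0.073). In MCF10A, WT libraries were at 737 and 698 CPM and the 8 loss libraries at 467 to 584 CPM (median 520). No loss library reached the WT range, and the log2 fold change was -0.46 (SE 0.0859, adjusted p = 0.011). With only 1 of the 2 WT libraries kept, the MCF10A call was lost (adjusted p = 0.28 without replicate 1 and 0.13 without replicate 2).

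**Figure D3:**
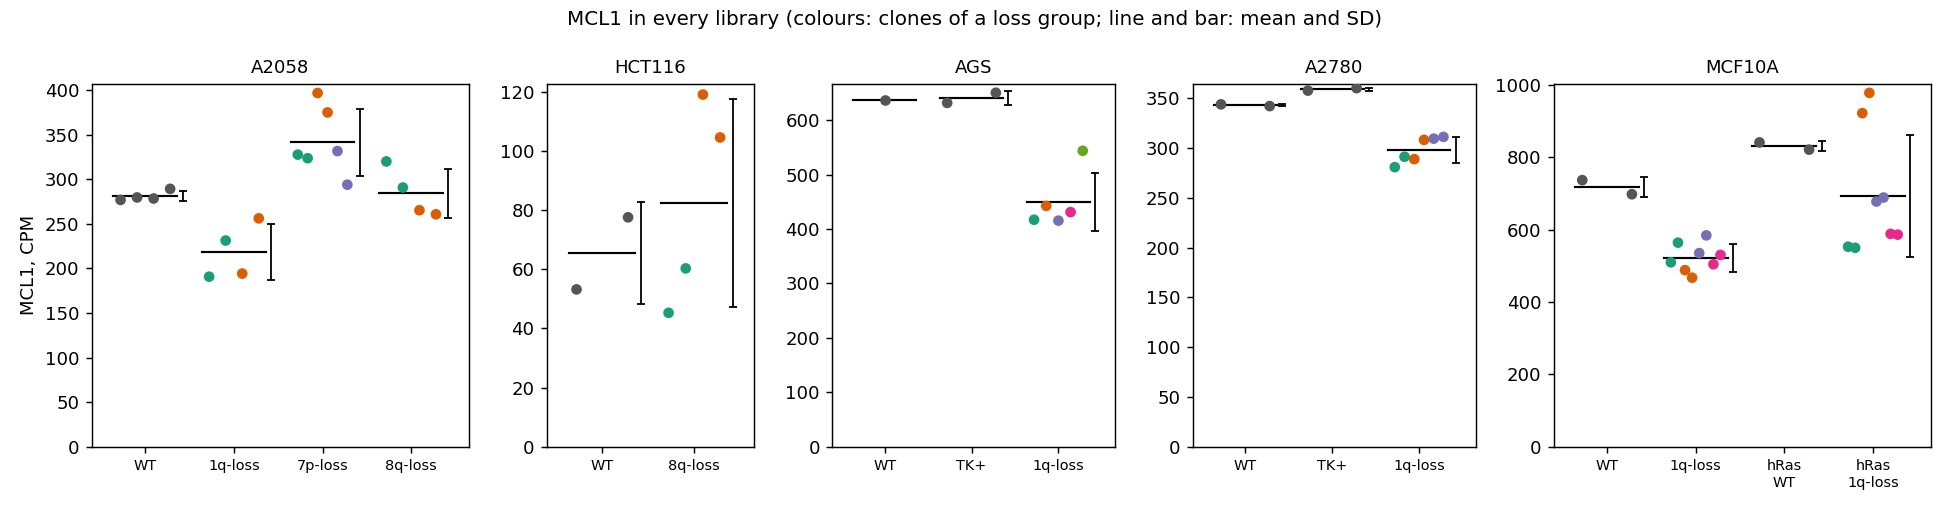
MCL1 in CPM in each of the 62 libraries, by line and group, with control libraries in grey, loss libraries coloured by clone, and the mean and SD of each group as a line and a bar. The loss libraries lie below all controls in the 1q-loss groups of A2058, AGS, A2780 and MCF10A, and clone 2 of MCF10A hRas (922 and 978 CPM) lies above its controls (841 and 821 CPM).

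In MCF10A hRas the clones diverged. The hRas WT libraries were at 841 and 821 CPM of MCL1, and the loss libraries at 553 and 550 CPM in clone 1, 922 and 978 in clone 2, 678 and 689 in clone 3 and 588 and 586 in clone 4. Clones 1, 3 and 4 lay below both WT libraries and clone 2 above them, and the log2 fold change over all clones was -0.26 (95% interval -0.73 to 0.22, adjusted p = 0.57). Without clone 2, in which the epithelial markers stood apart, it was -0.45 (adjusted p = 0.20). The difference of the 1q-loss effect between hRas and control MCF10A cells was 0.19 on the log2 scale (95% interval -0.32 to 0.71, adjusted p = 0.999). In that edgeR test of interaction 0 of 9 members and 0% of all genes were called. Before adjustment 366 genes passed 0.05, none of them a member, and DESeq2 called 0 genes there too.

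Where 1q was kept, MCL1 was not called. It was 294 to 397 CPM (median 330) in the 6 A2058 7p-loss libraries, all above the 4 WT libraries (log2 fold change 0.28, 95% interval 0.093 to 0.48, adjusted p = 0.20). In A2058 8q-loss it was 261 to 320 CPM, a range that overlapped WT (log2 fold change 0.01, 95% interval -0.17 to 0.19). In HCT116, WT libraries were at 53.2 and 77.6 CPM, 8q-loss clone 1 at 45.3 and 60.3 CPM and clone 2 at 119 and 105 CPM, so that only clone 2 lay above WT.

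Set beside its arm, MCL1 fell within the body of 1q genes. The median 1q gene tested was at 72.9%, 68.9%, 73.3% and 71.0% of its controls in the 1q-loss comparisons of A2058, AGS, A2780 and MCF10A, where MCL1 was at 77.5%, 70.6%, 84.9% and 72.8%. In MCF10A hRas these values were 77.6% for the median and 83.5% for MCL1. The share of 1q genes with a lower log2 fold change than MCL1 was 58.9%, 52.3%, 73.7%, 55.4% and 58.7% in the same order. Within 1 Mb of MCL1, 50 to 59 genes were tested in each comparison, and their median log2 fold change was -0.61 in A2058, -0.51 in AGS, -0.43 in A2780, -0.44 in MCF10A and -0.35 in MCF10A hRas. In A2780 45 of 54 and in A2058 44 of 55 of these neighbours had a lower log2 fold change than MCL1. In AGS 25 of 50 did, in MCF10A 27 of 56 and in MCF10A hRas 35 of 59. Of the genes within that window, 41 of 55 were called lower in A2058, 15 of 50 in AGS and 27 of 54 in A2780. In MCF10A 21 of 56 were called lower and in MCF10A hRas 1 of 59.

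By clone, MCL1 parted from the median of its whole arm most in 2 clones. In MCF10A hRas clone 2 the median 1q gene was 0.45 below the controls on the log2 scale and the median neighbour 0.32 below, while MCL1 was 0.19 above. In AGS clone 11, the only CO clone of that line, the median 1q gene was at -0.53 and the median neighbour at -0.41, against -0.23 for MCL1. In the other 4 AGS clones MCL1 was at -0.62 to -0.53 and the median 1q gene at -0.57 to -0.53. From the median neighbour, MCL1 lay farther in A2058 clones 1 and 2 and A2780 clones 2 and 5 than in AGS clone 11. In A2058 clones 1 and 2 MCL1 was at -0.42 and -0.33, and the median neighbour at -0.62 in each. In A2780 clones 2 and 5 MCL1 was at -0.29 and -0.23, against -0.54 and -0.50 for the median neighbour. These clone values were read after seeing the data and were not tested.

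**Figure D4:**
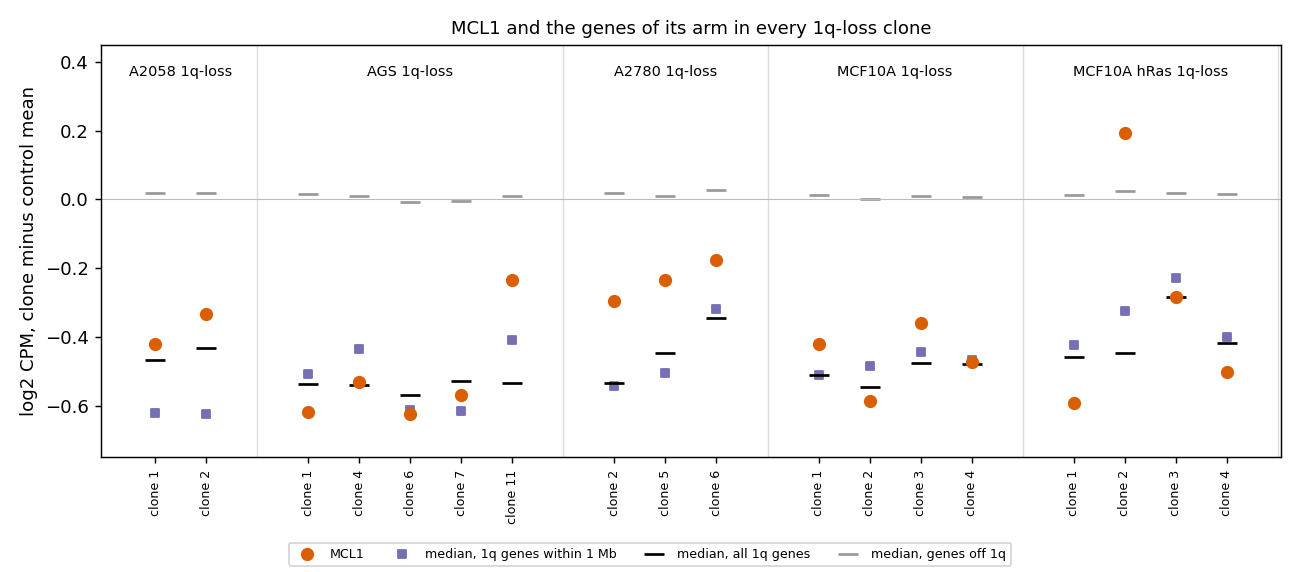
Difference of each 1q-loss clone from the mean of its controls in log2 CPM, for MCL1 (circles), the median 1q gene within 1 Mb of it (squares), the median gene of 1q (black bars) and the median gene elsewhere (grey bars). The black bars lie between -0.57 and -0.28 in all 18 clones and the grey bars near 0, and MCL1 of MCF10A hRas clone 2 is the only circle above 0.

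The share of MCL1 in the pro-survival messages was lower in 1q-loss cells. Of the summed CPM per kb of MCL1, BCL2, BCL2L1, BCL2L2 and BCL2A1, MCL1 made up 65.2% ± 2.09 (SD, n = 4) in A2058 WT and 58.0% ± 0.565 (n = 4) in 1q-loss. In AGS it was 46.7% in the WT library, 48.6% ± 2.58 (n = 2) in TK+ and 37.4% ± 2.83 (n = 5) in 1q-loss, and BCL2L1 passed from 47.4% in WT and 45.5% ± 3.38 in TK+ to 57.4% ± 2.73. In MCF10A MCL1 went from 85.0% ± 0.0408 (n = 2) to 80.0% ± 2.80 (n = 8), and in MCF10A hRas from 87.7% ± 0.328 (n = 2) to 80.2% ± 3.22 (n = 8). In A2780 it was 71.4% ± 2.81 (n = 6) in 1q-loss, 74.3% ± 0.0247 (n = 2) in WT and 75.6% ± 0.212 (n = 2) in TK+, and the highest loss library, at 74.6%, lay above both WT libraries and below both TK+ libraries. These shares follow from the levels above and were not tested separately.

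BCL2, which codes for the founding pro-survival protein of the family, changed most in size and in opposite directions. In A2058, WT libraries were at 26.2, 26.3, 25.5 and 27.2 CPM and 1q-loss libraries at 7.44 and 9.14 CPM in clone 1 and 6.24 and 5.82 CPM in clone 2. The groups were far apart (-1.88 on the log2 scale, SE 0.139, adjusted p = 2.2e-06). BCL2 is a known MITF target in melanocytes, and MITF was among the 6 melanocyte markers called lower in these clones, whose part in the result was not tested. BCL2A1, also named here as an MITF target, was not called in the same comparison (log2 fold change -0.01, adjusted p = 0.98). In the A2058 7p-loss and 8q-loss groups, whose melanocyte markers summed to 1196 to 4648 and 2087 to 3864 CPM, BCL2 was not called (log2 fold changes -0.08 and 0.22), and 1 and 2 of the 6 markers were called lower.

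In AGS, BCL2 rose from 0.998 CPM in WT and 0.452 and 0.888 CPM in TK+ to 3.93, 4.11, 5.09, 4.35 and 4.59 CPM in loss clones 1, 4, 6, 7 and 11. All 5 clones lay well above the 3 controls (log2 fold change 2.49, SE 0.292, adjusted p = 0.0041). The counts behind these values were low, 7 to 19 in the controls and 65 to 86 in the loss clones, and BCL2 made up 0.123% to 0.159% of the pro-survival sum per kb in the loss clones, against 0.0272% in WT and 0.0124% to 0.0256% in TK+.

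In A2780, BCL2 separated WT from every other library. It was at 7.82 and 7.93 CPM in WT, 0.705 and 0.734 CPM in TK+ and 0.356 to 0.793 CPM (median 0.563) in the 6 loss libraries. The TK+ values fell inside the range of the loss libraries. The called log2 fold change of -2.91 (SE 0.663, adjusted p = 0.017) against WT and TK+ together thus became -3.78 (adjusted p = 4.4e-05) against WT alone and -0.34 (adjusted p = 0.68) against TK+ alone. It was also not called without either WT library, without clone 2 or without clone 5 (log2 fold changes -2.91 to -2.43, adjusted p 0.059 to 0.062). In TK+ against WT, where 2 of 9 members were called (11.2% of genes), BCL2 was 3.44 lower on the log2 scale (SE 0.244, adjusted p = 1.1e-06), with 16 counts in each TK+ library against 173 and 161. The 3 fibroblast markers were all called lower in the same comparison, summing to 737 to 744 CPM in WT, 180 to 222 in TK+ and 332 to 2819 in the loss libraries, and their part in the result was not tested. In MCF10A BCL2 was 10.3 and 13.2 CPM in WT and 7.64 to 15.5 CPM (median 11.4) in 1q-loss, with no difference called (log2 fold change -0.02, 95% interval -0.53 to 0.49).

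**Figure D5:**
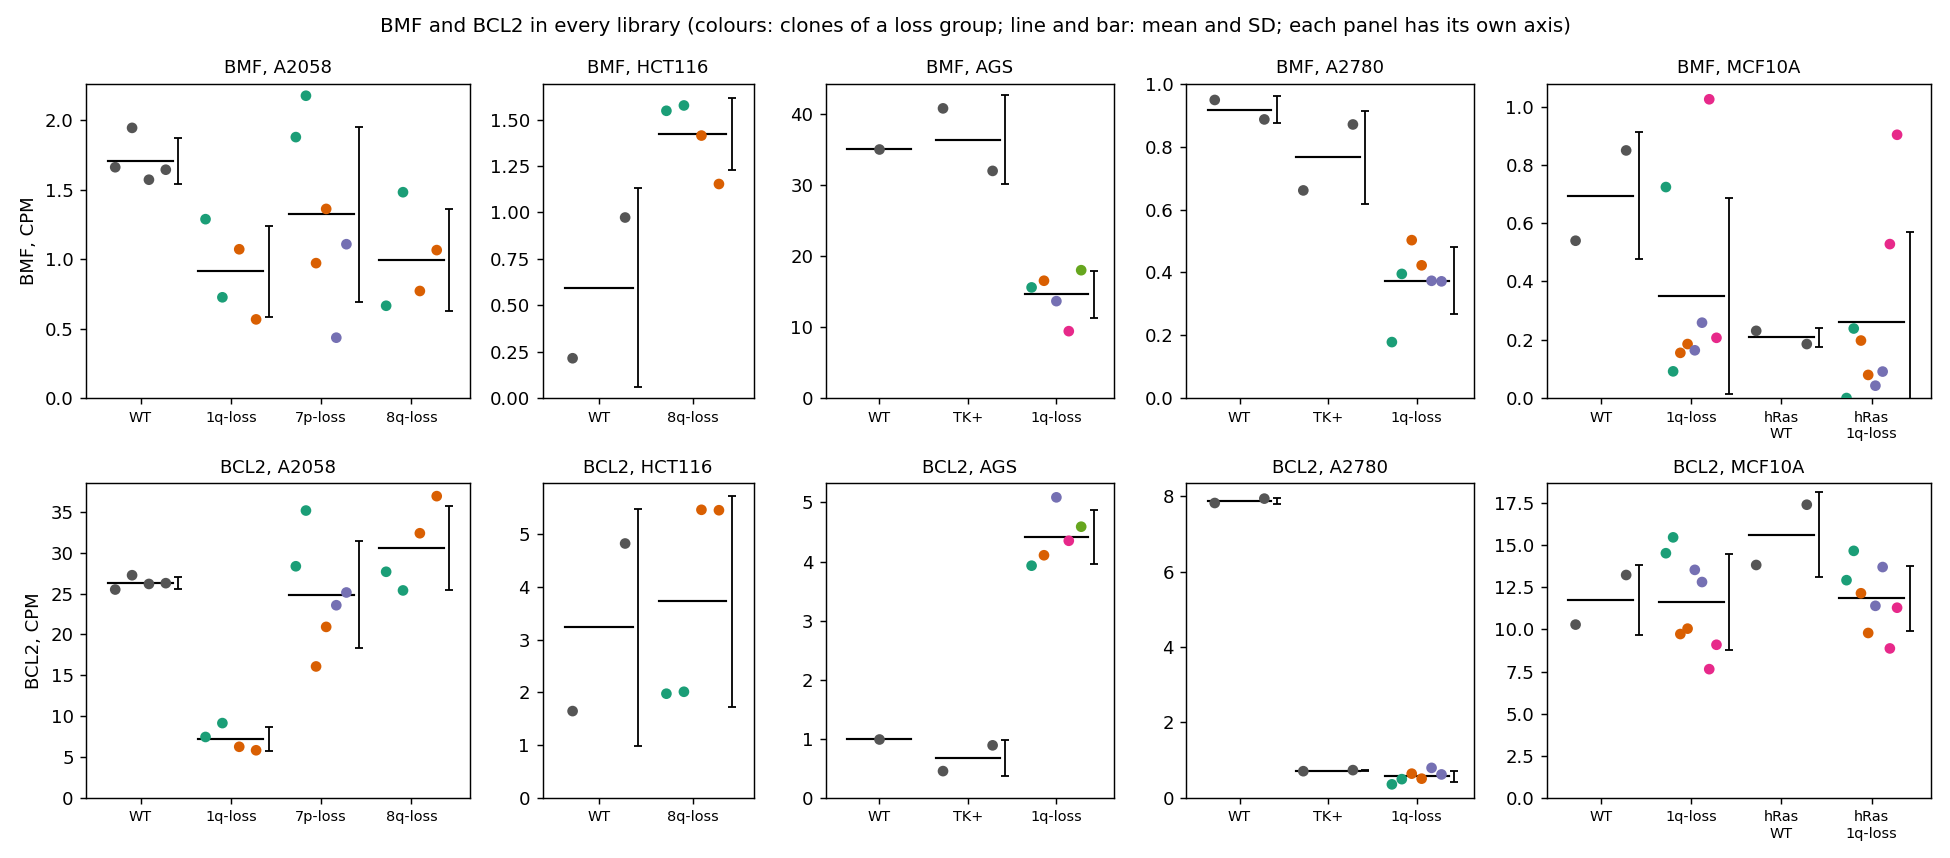
BMF (top) and BCL2 (bottom) in CPM in each library by line and group, with control libraries in grey, loss libraries coloured by clone and the mean and SD of each group as a line and a bar; each panel has its own axis. BMF in AGS lies at 32.0 to 40.8 CPM in controls and 9.43 to 18.0 CPM in 1q-loss clones, and BCL2 in A2780 is high in the 2 WT libraries alone.

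BCL2L1, the gene of BCL-XL, was called in A2058 1q-loss only. WT libraries were at 27.8, 27.9, 31.8 and 33.7 CPM and the 1q-loss libraries at 33.4 and 43.9 CPM in clone 1 and 47.1 and 53.8 CPM in clone 2. The lowest loss library fell within the WT range and the others lay above it, 0.55 higher on the log2 scale (SE 0.134, adjusted p = 0.0059). Without clone 2 it was 0.35 (adjusted p = 0.057). In AGS all 5 loss clones, at 501 to 541 CPM, were above the controls, at 421 to 491 CPM, yet the difference was not called (log2 fold change 0.16, 95% interval -0.071 to 0.40). Of BCL2L1 exon bases in GENCODE 29, 43.0% are shared with ABALON on the other strand, and whether counting used the strand is not stated.

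BCL2L2, the gene of BCL-W, was called in no comparison. It tended in opposite directions in 2 lines: AGS loss clones at 49.4 to 66.3 CPM were below the controls at 67.8 to 78.6 CPM (log2 fold change -0.35, adjusted p = 0.099), and MCF10A loss libraries at 33.7 to 43.9 CPM were above WT at 31.1 and 32.6 CPM (0.28, adjusted p = 0.34). Reads of BCL2L2 cannot be fully told from those of its neighbours, since 24.3% of its exon bases are shared with BCL2L2-PABPN1 or PPP1R3E. BCL2A1 was tested in A2058 alone. It was at 11.2 to 15.6 CPM in WT and 9.36 to 16.5 CPM in 1q-loss libraries (log2 fold change -0.01, 95% interval -0.40 to 0.39).

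BAK1, which codes for a pore-forming effector, differed little. In A2058 1q-loss it was 49.0 and 52.5 CPM in clone 1 and 47.7 and 50.9 CPM in clone 2, below the WT libraries at 58.6 to 65.7 CPM, a change of -0.30 in log2 (SE 0.0632, adjusted p = 0.0029). In MCF10A 1q-loss it was 69.7 to 82.6 CPM, above the WT libraries at 60.3 and 65.2 CPM, without a call (0.23, adjusted p = 0.27). In A2780 1q-loss the log2 fold change of 0.36 missed the threshold (adjusted p = 0.086) and passed it in DESeq2 (adjusted p = 0.048) and without clone 5 (0.47, adjusted p = 0.025) or its replicate 2 alone (0.42, adjusted p = 0.035). In AGS it was 0.39 (adjusted p = 0.15), with 46.0 to 67.8 CPM in loss clones and 42.3 to 51.0 CPM in controls.

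BMF, a BH3-only protein known for its binding to the dynein light chain of myosin V motors, was lower in 1q-loss cells of 3 lines. In AGS, where it is best measured, WT was at 35.1 CPM, TK+ at 40.8 and 32.0 CPM, and loss clones 1, 4, 6, 7 and 11 at 15.6, 16.5, 13.7, 9.43 and 18.0 CPM. The groups were well apart at 541 to 669 control counts against 143 to 290 in the loss clones, and the log2 fold change was -1.29 (SE 0.197, adjusted p = 0.011). This call held in all 14 alternative analyses (adjusted p at most 0.0495). In A2058, WT libraries were at 1.57, 1.64, 1.66 and 1.95 CPM and 1q-loss libraries at 1.29 and 0.725 CPM in clone 1 and 1.07 and 0.566 CPM in clone 2. No library overlapped, at 15 to 46 counts each (log2 fold change -0.91, SE 0.278, adjusted p = 0.019), and the call was lost without replicate 2 of clone 1 (adjusted p = 0.052) and without clone 2 (0.087).

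In A2780, BMF was at 0.949 and 0.887 CPM in WT, 0.661 and 0.871 CPM in TK+ and 0.178 to 0.503 CPM (median 0.384) in the loss libraries, with 4 to 21 counts each. The groups did not overlap (log2 fold change -1.16, SE 0.277, adjusted p = 0.021). The A2780 call was lost in 8 alternatives. These were TK+ controls alone (-1.02, adjusted p = 0.20), WT controls alone (-1.28, adjusted p = 0.070), leaving out either WT library, TK+ replicate 2 or clone 6 (adjusted p 0.057 to 0.070), no filter and clones summed. In MCF10A, WT libraries were at 0.540 and 0.850 CPM and loss libraries at 0.0916 to 1.03 CPM (median 0.196), with 2 to 22 counts. The groups overlapped there, and the log2 fold change of -0.98 was not called (95% interval -2.6 to 0.60). In MCF10A hRas both WT libraries were already low, at 0.231 and 0.185 CPM, and only clone 4 had both libraries above them, at 0.528 and 0.903 CPM. BMF also lay below all WT libraries in A2058 8q-loss (0.665 to 1.48 CPM, log2 fold change -0.78, adjusted p = 0.27) and above both WT libraries in HCT116 8q-loss (1.15 to 1.58 against 0.214 and 0.973 CPM, log2 fold change 1.26, adjusted p = 1.0), neither of them called.

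BCL2L11 is a textbook target of forkhead (FOXO) transcription factors. The windows below, from 250 bases before to 50 bases after a RefSeq start in GRCh38.p14, are shown for BCL2L11, called in A2780 TK+ against WT, and for BMF, called lower in the 1q-loss cells of 3 lines. Capitals mark the forkhead-type word GTAAACA, searched on both strands. The BCL2L11 window is chr2:111120664-111120963 on the plus strand and the BMF window chr15:40108830-40109129 on the minus strand.
BCL2L11: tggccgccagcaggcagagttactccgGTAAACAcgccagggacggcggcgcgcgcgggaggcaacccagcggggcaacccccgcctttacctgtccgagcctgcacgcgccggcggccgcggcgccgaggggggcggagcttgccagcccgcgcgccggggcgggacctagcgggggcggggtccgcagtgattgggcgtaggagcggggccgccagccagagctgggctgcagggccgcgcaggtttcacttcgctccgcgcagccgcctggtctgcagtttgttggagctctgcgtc
BMF: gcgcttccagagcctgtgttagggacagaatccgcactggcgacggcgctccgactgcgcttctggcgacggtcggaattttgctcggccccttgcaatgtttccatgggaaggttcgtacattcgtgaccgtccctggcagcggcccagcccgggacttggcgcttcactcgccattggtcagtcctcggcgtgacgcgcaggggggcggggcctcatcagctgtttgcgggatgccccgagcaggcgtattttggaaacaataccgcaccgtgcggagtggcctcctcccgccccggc
The word occurred in 1 of 13 windows of the 7 members that have an entry, that of BCL2L11, and in neither BMF window, and 3.42% of all 35116 promoter windows hold it. MCL1, BCL2L2 and BIK matched no entry by symbol in the promoter set used. A match of letters is not a site of binding.

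BCL2L11, the gene of BIM, was called higher in A2780 TK+ than in WT, with the 1q-loss libraries between them. WT libraries were at 3.93 and 3.15 CPM, TK+ at 10.4 and 9.72 CPM and the 6 loss libraries at 5.78 to 7.65 CPM (median 7.09). The 3 kinds of library did not overlap. TK+ exceeded WT by 1.503 on the log2 scale (SE 0.180, adjusted p = 1.2e-04). Against both controls together the loss libraries gave 0.01 (95% interval -0.66 to 0.68), against WT alone 0.95 (adjusted p = 0.012) and against TK+ alone -0.55 (adjusted p = 0.067). In AGS, TK+ libraries were at 23.3 and 28.7 CPM and WT at 27.9 CPM, so WT lay between the TK+ libraries there. FOXO1, a forkhead factor, was also called higher in TK+ than in WT, by 1.64 on the log2 scale (SE 0.360, adjusted p = 0.010, but 0.067 with DESeq2), from 14 to 51 counts. FOXO1 was also called higher in A2058 1q-loss (0.66, adjusted p = 5.0e-04) and in MCF10A hRas WT against WT (0.66, adjusted p = 0.0054, but 0.25 and 0.32 without either WT library). BCL2L11 was not called in either, with log2 fold changes of -0.11 and 0.15. Whether FOXO1 had a part in the BCL2L11 values was not tested. Of BCL2L11 exon bases, 10.9% are shared with MIR4435-2HG on the other strand.

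BID, which codes for the BH3-only protein cut by caspase-8, was called in no comparison. The nearest to a call was AGS 1q-loss, where loss clones at 44.2 to 47.7 CPM lay above the controls at 36.7 to 41.5 CPM (log2 fold change 0.26, adjusted p = 0.12). BIK, a BH3-only protein of the endoplasmic reticulum, was called lower in A2058 1q-loss (-1.34, SE 0.420, adjusted p = 0.022). The values were 1.37, 0.736, 1.29 and 2.03 CPM in WT and 0.286, 0.580, 0.326 and 0.906 CPM in 1q-loss, so that the groups overlapped at 6 to 48 counts. This call was lost without WT replicate 4, without clone 1, or without replicate 1 of either clone (adjusted p 0.056 to 0.10).

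The 4 hRas-expressing 1q-loss clones differed from each other in BCL2L11, BCL2L1 and BIK. BCL2L11 was 18.2 and 17.9 CPM in hRas WT, 19.0 and 16.6 in clone 1, 11.9 and 15.03 in clone 3, 9.98 and 8.70 in clone 4 and 5.64 and 7.93 in clone 2. BCL2L1 ran the other way, from 63.0 and 57.9 CPM in hRas WT and 60.2 and 55.4 in clone 1, through 68.4 and 80.3 in clone 3 and 105 and 109 in clone 4, to 143 and 138 in clone 2. BIK was 9.91 and 10.7 CPM in hRas WT, 17.9 and 17.0 in clone 1, 10.5 and 11.2 in clone 3, 4.81 and 5.01 in clone 4 and 1.14 and 1.82 in clone 2. Clone 2 thus had the highest MCL1 and BCL2L1 and the lowest BCL2L11 and BIK of the 4. MCL1 did not follow the clone order 1, 3, 4 and 2 of BCL2L11, BCL2L1 and BIK. The basal breast markers summed to 4932 to 5117 CPM in clone 1, 4236 to 4437 in clone 3, 3067 to 3189 in clone 4 and 845 to 891 in clone 2, the same order. The 3 fibroblast markers ran the opposite way, at 14.1 to 14.9 CPM in clone 1, 34.8 to 39.9 in clone 3, 93.5 to 104 in clone 4 and 267 to 286 in clone 2, against 25.6 to 26.6 CPM in hRas WT. The part of either list in these values was not tested. Over all 4 clones none of these genes was called: the log2 fold changes were 0.65 for BCL2L1 (95% interval -0.13 to 1.4), -0.61 for BCL2L11 (-1.4 to 0.19) and -0.25 for BIK (-2.0 to 1.5). The 1q-loss clones without hRas differed too. In clones 1, 2, 3 and 4 the means were 15.6, 7.85, 11.6 and 6.82 CPM for BIK and 58.2, 60.6, 58.7 and 81.6 CPM for BCL2L1. For BCL2L11 they were 14.0, 12.3, 14.5 and 13.9 CPM.

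In parental MCF10A cells, hRas expression alone was compared in 2 libraries a group. None of the 9 members tested was called, against 1.62% of genes, and DESeq2 also called 0. Before adjustment 3 members passed 0.05: MCL1 (841 and 821 against 737 and 698 CPM, log2 fold change 0.21, adjusted p = 0.23), BCL2 (0.42, adjusted p = 0.29) and BMF (-1.70, adjusted p = 0.29, 4 to 19 counts).

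Other genes of the pathway were followed in 4 lists. Of the other BCL2 family genes (BAX, BOK, BAD, HRK, BBC3, PMAIP1, BCL2L10 and BCL2L12 to BCL2L15), 8 were tested in A2058 1q-loss, with 2 called higher and 2 lower and a median log2 fold change of -0.02 (all genes tested -0.00). That is 50% called, near the 49.6% of all genes in this comparison. There HRK, a BH3-only gene with 0 to 55 counts in these 8 libraries, was lower (log2 fold change -3.95, SE 0.6251, adjusted p = 4.1e-04), and BBC3, which codes for the p53-induced BH3-only protein PUMA, was higher (0.65, adjusted p = 0.033). The BBC3 call was lost without clone 2 (0.36, adjusted p = 0.29) and without any 1 of 6 libraries, namely WT replicate 1, 2 or 4, replicate 2 of clone 1 or either replicate of clone 2 (adjusted p 0.051 to 0.092). In A2780 1q-loss 3 of 7 were called higher and 0 lower (11.8% of all genes called), with a median of 0.32 (all genes 0.01), led by BBC3 (0.72, adjusted p = 0.0021) and BAX, the second effector (0.43, adjusted p = 0.0071, but 0.11 with TK+ controls only). In HCT116 8q-loss BBC3 was the only call of 9 (0.140% of all genes called) and was lower (-2.02, SE 0.326, adjusted p = 0.043). That call was lost without either WT library (adjusted p = 0.99 without replicate 1 and 0.070 without replicate 2), without replicate 2 of clone 1 (0.22) or of clone 2 (0.060), without clone 1 (0.076) and with clones summed (0.15). In AGS 1q-loss BCL2L15 was the only call of 9 (7.55% of all genes) and was lower (-0.76, adjusted p = 0.018), a call lost without the WT library or either TK+ library (adjusted p 0.058 to 0.081). In A2780 TK+ against WT BOK was the only call of 7 (11.2% of all genes) and was lower (-0.42, adjusted p = 0.014), a call lost without either WT library (adjusted p 0.064 and 0.12). None of 8 was called in A2058 7p-loss, A2058 8q-loss or any MCF10A comparison.

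All 19 genes listed as mitochondrial apoptosis machinery, most of which act after membrane opening or block the steps after it, were tested in each line. In A2058 1q-loss 2 were called higher and 7 lower, or 47.4% against 49.6% of all genes, with a median of -0.05. The lower genes were led by AIFM1, an oxidoreductase of the intermembrane space (-0.85, adjusted p = 1.3e-05), and DFFB, the caspase-activated nuclease (-0.57, adjusted p = 0.0068, but 0.058 without clone 2). In A2058 7p-loss the only call was CYCS, the cytochrome c gene, which lies on 7p (-0.59, SE 0.0864, adjusted p = 0.0079). That is 5.26% of the 19 genes against 0.908% of all genes. CYCS was not called there without clone 3 (adjusted p = 0.053), with clones summed (0.063) or with the replicate number as a block (0.27). In AGS 1q-loss 1 was called higher and 2 lower, or 15.8% against 7.55% of all genes, with a median of 0.24, and the higher gene was CYCS (0.59, adjusted p = 0.026). The CYCS call was lost without loss clone 7, the WT library or either TK+ library (adjusted p 0.052 to 0.12). In A2780 1q-loss 3 were called higher and 0 lower, or 15.8% against 11.8% of all genes, among them BIRC2, the gene of the inhibitor cIAP1 (0.80, adjusted p = 0.017), and CASP9, the initiator caspase (0.62, adjusted p = 0.021). BIRC2 was not called without WT replicate 1, without TK+ replicate 2 or with either control type alone (adjusted p 0.053 to 0.12), and CASP9 not without either WT library, with clones summed or with TK+ controls only (0.059 to 0.18). In A2780 TK+ against WT 2 of 19 were called, or 10.5% against 11.2% of all genes: CASP9 was higher (0.52, adjusted p = 0.043) and DFFA lower (-0.26, adjusted p = 0.049). Both calls were lost without either WT library and with DESeq2 (adjusted p 0.062 to 0.47). No gene of the list was called in A2058 8q-loss, HCT116 or MCF10A.

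Of 7 genes that act on MCL1 protein turnover, ubiquitin ligases and deubiquitinases, MARCHF5 was called lower in A2058 1q-loss (-0.22, adjusted p = 0.028), as 1 of 6 tested (16.7% against 49.6% of all genes), and TRIM17, which lies on 1q, in A2780 1q-loss (-0.92, adjusted p = 0.017), as 1 of 7 (14.3% against 11.8%). The MARCHF5 call was lost without WT replicate 2, without replicate 2 of clone 1 or of clone 2, without either clone, with clones summed and without a filter (adjusted p 0.060 to 0.098). The TRIM17 call was lost without either WT library and with either control type alone (adjusted p 0.052 to 0.14). None was called in the other comparisons. Of 15 genes upstream of BH3-only genes, 2 were called higher and 6 lower of the 14 tested in A2058 1q-loss, or 57.1% against 49.6% of all genes. TP73, a p53 homologue, was lower there (-1.78, adjusted p = 4.2e-05) but higher in A2780 1q-loss (1.504, adjusted p = 0.017) and in A2780 TK+ against WT (1.68, adjusted p = 6.1e-04). In A2780 1q-loss 2 of 14 were called (14.3% against 11.8% of all genes), and in TK+ against WT 3 of 14, all higher (21.4% against 11.2%). TP73 was not called in A2780 1q-loss with clones summed (adjusted p = 0.097). E2F1 was the other call in A2780 1q-loss (-0.27, adjusted p = 0.016), lost without WT replicate 1, with clones summed and with either control type alone (adjusted p 0.059 to 0.093). In AGS 1q-loss MAPK3 was the only call of 14 (7.14% against 7.55% of all genes; 0.59, adjusted p = 0.043), lost without loss clone 4, 6 or 7 or any 1 control library (adjusted p 0.051 to 0.17).

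The genes whose pattern was most like that of MCL1 all lay on 1q. Over the 16 groups, with mean log2 CPM centred within each line and 13128 protein-coding genes compared, Pearson's r with MCL1 was 0.92 for CERS2, 0.92 for DEGS1 and 0.92 for CEP170. For BMF the highest were PHF13, on 1p (r = 0.87), and HCN3 and ACBD3, on 1q (r = 0.86 for each). Groups of a line share the mean on which they were centred, so these values describe the 16 groups only.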

How the data were processed

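Each library's table holds raw whole-number counts per gene as deposited by the authors, 1 table per library, with gene symbols, coordinates and gene lengths. The submitters' processing notes list HISAT2 2.0.5 and featureCounts 1.5.0-p3 and hg38, without their settings; strand use is not given in the sources used here. Tables of A2780 carry GRCh37 coordinates, the others GRCh38. No counts stood in rows without an Ensembl gene ID.

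Members were the rows with the 10 gene names. Each fit held its own comparison's libraries alone. Low counts were removed by filterByExpr (edgeR 4.0.16, minimum count 10, minimum total 15); genes were then scaled by TMM and tested with glmQLFit and glmQLFTest (R 4.3.3, limma 3.58.1), two-sided, with Benjamini-Hochberg adjustment over all genes tested. SE was taken as the absolute log2 fold change over the root of F. CPM used TMM library sizes, with all libraries of a line scaled together, and clone differences log2 CPM with a prior count of 2. Alternatives were DESeq2 1.42.0, RLE size factors, TMM from genes off the targeted arm, an unfiltered table, a floor of 1 on the mean CPM, summed clones, a replicate block, either control type alone, and leaving out each library and each clone. The fit was tested on simulated data. Replicate numbers were not taken as pairs, since in no comparison of 3 or more pairs did every pair of clones or groups correlate over 0.1 in its replicate deviations. Single pairs did, up to 0.42 between the A2058 8q-loss clones and 0.37 between A2058 7p-loss clones, and in A2780 1q-loss 6 of 10 pairs. No 2 libraries of a group agreed within sampling noise (lowest chi-square per degree of freedom 3.63 over 126 pairs). Exon overlaps come from GENCODE 29. Promoter windows are RefSeq's, of GRCh38.p14, and 7 of 10 members matched by symbol.

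Besides the members, the text names per list and comparison at most the 2 called genes with the largest absolute log2 fold change, and the 3 genes most like MCL1 and BMF; the members of small counts were named outside that rule after their values were seen. The members and lists were chosen with earlier results of these data known. One list gene's result is not reported here.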

Additional observations from a re-analysis of the deposited data

Results flagged for a closer look

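The 86 sets examined each held the values of 1 member gene in 1 group of at least 4 libraries. In 5 of these sets, 1 library lay far from the others. Chance gives such a gap in about 5% of sets of independent libraries, and libraries of 1 clone are not independent. MCL1 in AGS 1q-loss clone 11 was at 544 CPM, against 415 to 443 CPM in the other 4 clones. BCL2L2 in HCT116 8q-loss clone 1 replicate 2 was at 19.2 CPM, against 10.8 to 11.9 CPM in the other 3 libraries. BAK1 in MCF10A 1q-loss clone 2 replicate 2 was at 82.6 CPM, against 69.7 to 74.3 CPM in the other 7. BMF in A2780 1q-loss clone 2 replicate 1 was at 0.178 CPM, against 0.372 to 0.503 CPM in the other 5, and rests on 4 counts. BCL2A1 in HCT116 8q-loss clone 2 replicate 2 was at 0.140 CPM, also 4 counts, against 0 in the others.

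In 4 cases all libraries of a loss group lay below their controls in 1 line and all above in another under loss of the same arm. The share of all genes that separate in this way was not computed, so the count says nothing particular to these members. Controls were as few as 2 libraries, in HCT116 and MCF10A. These differences between lines were not tested. BCL2 had log2 fold changes of -1.88 in A2058 1q-loss and 2.49 in AGS 1q-loss, 4.37 apart, and both were called. BMF had -0.78 in A2058 8q-loss and 1.26 in HCT116 8q-loss, 2.04 apart, neither called. BCL2L2 had -0.35 in AGS and 0.28 in MCF10A 1q-loss, 0.64 apart, neither called. BAK1 had -0.30 in A2058 1q-loss, which was called, and 0.23 in MCF10A 1q-loss, which was not, 0.52 apart.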

How the results depend on the processing

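The number of members called stayed within 1.5 times its main value under all alternatives, with exceptions in A2780 and MCF10A 1q-loss. In A2780 it was 3 in the main analysis, 0 with the libraries of each clone summed, 0 with TK+ controls only, and 1 to 4 on leaving out libraries or clones. In MCF10A it was 1, and 0 to 1 on leaving out libraries or clones. MCL1 kept its negative sign in the 5 1q-loss comparisons under every alternative. In AGS it was not called without a filter (-0.49, adjusted p = 0.070) or with TK+ controls only (-0.48, adjusted p = 0.13), and leaving out libraries gave -0.58 to -0.47. In A2780 it was not called with clones summed (-0.23, adjusted p = 0.055), WT controls only (-0.20) or TK+ controls only (-0.27). Leaving out libraries in MCF10A gave -0.50 to -0.42. Over 96 further results of single members, MCL1 under 1q loss aside, and 1632 alternative values, 1605 kept their side of the threshold, 23 lost a call, 4 gained one and 0 reversed a call. A further 114 values without a call changed sign. Of 45 calls among the 4 lists of other pathway genes, 15 held under every alternative, 23 were lost on leaving out at least 1 library and 7 with the replicate block, and 0 of 739 alternative values changed sign.

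With the replicate number as a block, although not every pair of clones or groups shared replicate deviations, members called in A2058 1q-loss were 4, without BMF (adjusted p = 0.069) and BIK (0.17), and the counts in the other comparisons with replicate numbers did not change. Of the list genes named above, the block ended the calls of BBC3 (adjusted p = 0.069), DFFB (0.062) and MARCHF5 (0.059) in A2058 1q-loss. It also ended those of CYCS in A2058 7p-loss (0.27) and BBC3 in HCT116 8q-loss (0.058). No paired analysis was possible in AGS because its libraries carry no replicate numbers. The cause of these changes was not tested. On the CPM scale, in place of CPM per kb, the order of members changed in each line, MCL1 remaining highest in the same 4 lines. Low counts limit BMF outside AGS, and BIK in A2058 and A2780.

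Over all genes tested, the number called differed by more than 1.5 times in some settings. DESeq2 called 454 genes in A2058 7p-loss (139 by edgeR), 675 in A2058 8q-loss (308), 112 in HCT116 (22), 2116 in AGS (1131), 549 in MCF10A (319) and 360 in MCF10A hRas 1q-loss (34). Without a filter edgeR called 487 in A2058 8q-loss, 133 in HCT116, 13 in MCF10A hRas 1q-loss and 633 in hRas against WT (237). With clones summed it called 55 in A2058 7p-loss, 725 in A2780 1q-loss (1780) and 0 in MCF10A hRas 1q-loss, and with TK+ controls only 167 in AGS and 667 in A2780. The replicate block gave 1 in A2058 7p-loss, 39 in A2058 8q-loss, 8 in HCT116, 2 in MCF10A hRas 1q-loss and 711 in hRas against WT. Leaving out libraries or clones gave 71 to 898 in A2058 7p-loss, 119 to 783 in A2058 8q-loss, 0 to 117 in HCT116, 97 to 1773 in AGS, 983 to 1800 in A2780 1q-loss, 16 to 452 in MCF10A, 0 to 60 in MCF10A hRas 1q-loss, 0 to 173 in hRas against WT and 1094 to 3278 in A2780 TK+ against WT (1669).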
